A study of Mus musculus with 23 samples.

Results

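Transcripts of 6 Sprouty and Spred genes (Spry1, Spry2, Spry4, Spred1, Spred2 and Spred3) were followed in 23 RNA-seq libraries of mouse embryonic stem cells (ESC). The genes were taken by symbol and make up 6 of the 53607 gene rows of the deposited count table, and all 6 were among the 20372 genes with enough counts to be tested. Every library came from the Raslox/lox line, which is H-Ras-/- and N-Ras-/- and carries the tamoxifen-inducible recombinase Ubiq-CreERT2, so the reference cells also lack H-Ras and N-Ras by their label. There were 8 groups. The reference line was wild type for ERF and received no drug. The RAS-deleted cells were the same line given 4-hydroxytamoxifen (OHT) for 6 days, which activates the recombinase. The cells labelled ERF knockout carried that genotype without OHT, and the cells with both losses carried it and received OHT for 6 days. Each genotype was kept in 2iL, a medium with LIF and inhibitors of MEK and GSK3, or was moved to FA (FGF2 plus Activin A) for 48 hours to become epiblast-like cells. Each group held 3 libraries, except the reference line in FA with 2. OHT and the deletion cannot be told apart, since no library received OHT without the deletion label. The labels do not say how many clones carried the ERF genotype or whether replicates were separate cultures, so p-values measure the spread between these libraries, which may be technical.

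Sprouty and Spred proteins are feedback inhibitors of receptor tyrosine kinase signalling through RAS, MEK and ERK. Their genes are commonly transcribed in response to ERK activity, and the proteins then lower the activity of the same cascade. Sprouty proteins act through adaptor proteins, and Spred proteins carry neurofibromin, a protein that switches RAS off, to the membrane. In ESC, FGF signalling through ERK drives the exit from the naive state, and the MEK inhibitor in 2iL blocks it. ERF, an ETS-family protein, represses transcription and leaves the nucleus when ERK phosphorylates it.

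Total counts ran from 16.2 to 29.9 M per library, with a median of 21.97 M. The ERF knockout label was not matched by less Erf RNA, which averaged 116 ± 17.5 CPM (SD, n = 3) against 77.6 ± 7.66 (SD, n = 3) in the reference line in 2iL, and 57.5 ± 7.06 (SD, n = 3) against 63.1 ± 9.41 (SD, n = 2) in FA. RNA level is therefore no check of that genotype, which is given here only as a label. RNA of the H-Ras and N-Ras genes was present in all 8 groups, which share the label of their loss, with group means of 12.5 to 25.4 CPM and 15.6 to 43.1 CPM, so it is no check of those genotypes either. N-Ras ran from 5.32 to 52.3 CPM between the 2iL libraries with both losses. The RAS deletion given by OHT was not checked on RNA here, and RAS-deleted names cells by that label throughout. CPM are counts per M of the library size after TMM scaling. The libraries were those of pluripotent cells by their markers (Pou5f1, Sox2, Sall4, Nanog, Utf1 and Lin28a sum to between 1182 and 1911 CPM), while markers of feeder fibroblasts summed to at most 7.43 CPM, with Postn at 0 in every library of 7 groups. The 2 reference libraries in FA differed from each other by 0.364 (log2) in their median over chromosome 8, replicate 1 being higher. No member lies there.

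The promoters of members that behaved differently are shown because ETS factors such as ERF recognise the core GGAA. RefSeq (GRCm38.p6) windows of 300 bases, from 250 before to 50 after the transcript start, were found for 5 members. In lower case, 5′ to 3′, with capitals on GGAA and on its reverse complement TTCC, they read as follows for Spry2 (chr14:105896770-105897069, minus strand), Spred1 (chr2:117120821-117121120, plus strand), Spred2 (chr11:19924192-19924491, plus strand) and Spred3 (chr7:29168598-29168897, minus strand).
Spry2: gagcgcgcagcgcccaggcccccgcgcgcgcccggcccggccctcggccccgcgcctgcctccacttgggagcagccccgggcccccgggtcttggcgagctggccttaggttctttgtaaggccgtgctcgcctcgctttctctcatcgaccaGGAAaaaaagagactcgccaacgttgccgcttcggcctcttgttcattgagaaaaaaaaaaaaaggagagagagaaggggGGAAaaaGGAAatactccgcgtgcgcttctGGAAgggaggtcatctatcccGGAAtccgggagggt
Spred1: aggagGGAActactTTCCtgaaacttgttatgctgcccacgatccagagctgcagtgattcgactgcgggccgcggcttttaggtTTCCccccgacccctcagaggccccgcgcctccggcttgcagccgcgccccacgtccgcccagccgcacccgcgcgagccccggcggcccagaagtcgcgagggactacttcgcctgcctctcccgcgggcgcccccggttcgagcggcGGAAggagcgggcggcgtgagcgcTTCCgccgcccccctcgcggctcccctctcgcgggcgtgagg
Spred2: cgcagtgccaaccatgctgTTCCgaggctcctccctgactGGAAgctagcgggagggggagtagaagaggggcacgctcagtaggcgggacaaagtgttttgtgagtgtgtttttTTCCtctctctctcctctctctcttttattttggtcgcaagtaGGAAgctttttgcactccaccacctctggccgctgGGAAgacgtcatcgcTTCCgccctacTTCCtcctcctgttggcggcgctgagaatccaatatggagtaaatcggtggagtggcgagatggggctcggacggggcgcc
Spred3: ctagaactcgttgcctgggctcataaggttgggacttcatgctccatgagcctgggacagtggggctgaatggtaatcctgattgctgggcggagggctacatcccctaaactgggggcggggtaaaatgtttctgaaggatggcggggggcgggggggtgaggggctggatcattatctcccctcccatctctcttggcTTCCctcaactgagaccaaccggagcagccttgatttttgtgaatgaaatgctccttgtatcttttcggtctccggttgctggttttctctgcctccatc
The windows hold 5 matches for Spry2, 5 for Spred1, 7 for Spred2 and 1 for Spred3, and that of Spry1 (chr3:37639697-37639996, plus strand) holds 1. At least 1 match stood in 96% of the 32851 RefSeq windows of this length, with a median of 3, and 28.6% held at least 5 and 8.02% at least 7. The longer ETS motif CCGGAA, which contains a GGAA, stood in 14.9% of all windows on either strand and, among the members, once in that of Spry2. A match is a description of the letters and not a binding site. The genes themselves span chr14:105891947-105896819 (Spry2), chr2:117121071-117182279 (Spred1), chr11:19924442-20024026 (Spred2), chr7:29157783-29170070 (Spred3) and chr3:37639947-37644599 (Spry1), so the start used for Spred3 lies inside its annotated span.

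On a scale per transcript length (TPM), the family was a mixture led by Spry2 and Spred2, and RAS deletion in FA changed the mixture. The 6 genes summed to 43.6 ± 5.24 TPM (SD, n = 3) in the reference line in 2iL and to 99.8 and 77.9 TPM in its FA libraries. The RAS-deleted FA libraries held 23.9, 29.8 and 36.0 TPM, which is below every other group. Spry2 made up 44.9% of the sum in the reference line in 2iL and 35.2% in FA, but 6.97% in RAS-deleted FA cells, where Spred2 made up 66.5%. Spry4 was 0.284% of the sum in 2iL and 7.71% in FA in the reference line. With both losses in FA the sum was 45.1 ± 2.75 TPM (SD, n = 3), of which Spry2 was 29.2% and Spred2 40.0%. No test was made of the sum.

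**Figure D1:**
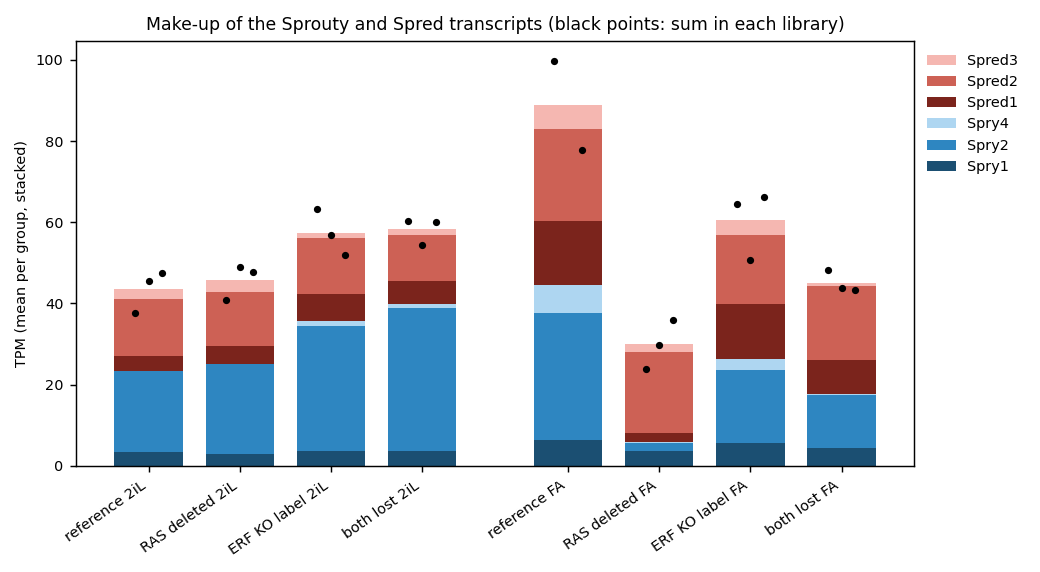
Summed TPM (vertical axis, from 0) of the 6 genes as stacked group means, with a black point for the sum in each library; groups are in 2iL on the left and FA on the right. The RAS-deleted FA bar is the lowest, at 29.9 TPM, and consists mostly of Spred2, while the reference FA bar, at 88.8 TPM, holds a visible Spry4 share.

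Spry4, a Sprouty that inhibits growth factor signalling to ERK, had the widest range of the 6 genes, with a ratio of 157 between the highest and lowest group means. In 2iL it was near the limit of counting in ERF wild-type cells, at 0.630, 0.536 and 0.604 CPM in the reference libraries (18, 9 and 13 counts) and 0.215, 0.203 and 0.194 CPM in the RAS-deleted ones (4 counts in each). The 2iL libraries labelled ERF knockout held 5.05, 5.14 and 6.10 CPM, and those with both losses held 5.01, 4.70 and 6.47 CPM. In 2iL, therefore, every library with the ERF label stood above every library without it, with or without RAS. In FA the reference libraries reached 38.3 and 25.6 CPM and those labelled ERF knockout 14.8, 9.99 and 15.4 CPM. The RAS-deleted FA libraries fell to 0.0876, 0.527 and 0.395 CPM (2, 13 and 11 counts), and those with both losses held 0.644, 0.694 and 0.539 CPM (20, 17 and 13 counts). High Spry4 in FA was thus found only in the groups with RAS, whatever the ERF label, and the groups did not overlap.

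Spry2, a Sprouty that binds the ubiquitin ligase Cbl and the adaptor Grb2, was abundant in 7 groups and low in 1. Its 2iL levels were 32.3, 43.8 and 46.0 CPM in the reference line, 39.8, 46.4 and 47.8 CPM after RAS deletion, 68.2, 74.0 and 61.1 CPM with the ERF knockout label, and 78.6, 93.9 and 85.5 CPM with both losses. In FA the reference libraries held 64.9 and 60.5 CPM, the RAS-deleted ones 2.94, 3.44 and 5.14 CPM, those labelled ERF knockout 41.4, 34.7 and 42.0 CPM, and those with both losses 25.1, 23.998 and 26.1 CPM. RAS-deleted FA cells thus stood apart below all others, and the libraries with both losses lay between them and the rest. In the order of the means, the reference line overlapped the ERF-labelled FA group and the RAS-deleted group when it was in 2iL, and the ERF-labelled 2iL group when it was in FA.

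Spry1, the member that is best known from kidney and muscle, varied little: its group means ran over a ratio of 2.17. It measured 11.1, 8.09 and 7.62 CPM in the reference line in 2iL and 14.5 and 16.95 CPM in FA. After RAS deletion it measured 8.17, 7.20 and 6.29 CPM in 2iL and 6.44, 8.39 and 8.84 CPM in FA. The libraries labelled ERF knockout held 9.51, 9.91 and 9.46 CPM in 2iL and 15.6, 15.8 and 13.1 CPM in FA, and those with both losses 10.4, 10.5 and 11.1 CPM and 8.98, 11.1 and 10.5 CPM. The 5 FA libraries with RAS ran from 13.1 to 16.95 CPM and the others from 6.29 to 11.1 CPM, and among the 6 lower groups neighbours in the order of means overlapped.

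Spred1, a Spred whose loss causes the RASopathy called Legius syndrome in people, repeated the order of Spry2 in FA and not in 2iL. It measured 22.3, 23.6 and 21.1 CPM in the reference line in 2iL and 25.4, 26.6 and 22.8 CPM after RAS deletion there. The 2iL libraries labelled ERF knockout held 41.1, 41.4 and 43.6 CPM, and those with both losses 40.8, 33.4 and 38.3 CPM. The ERF label again separated the 2iL groups without overlap. In FA the reference libraries held 95.4 and 83.5 CPM, those labelled ERF knockout 82.8, 75.4 and 91.9 CPM, the RAS-deleted ones 11.3, 12.4 and 11.3 CPM, and those with both losses 44.0, 47.7 and 46.0 CPM. RAS-deleted FA cells thus had less Spred1 than any 2iL group. FA cells with both losses lay between the RAS-deleted FA cells and the FA groups with RAS.

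Spred2 was the steadiest member, with a ratio of 1.72 between its highest and lowest group means. The 2iL libraries ran from 41.2 to 54.1 CPM, and groups next to each other in the order of means overlapped; the RAS-deleted libraries (43.4, 47.8 and 48.6 CPM) lay just under the reference ones (48.9, 48.7 and 51.2 CPM). In FA the reference libraries held 84.0 and 76.4 CPM, and the 9 other libraries ran from 56.8 to 71.0 CPM. Replicate 1 labelled ERF knockout in 2iL had a median shift of 0.183 (log2) over chromosome 11, where Spred2 lies, and its Spred2 level was 54.1 CPM against 47.1 and 51.4 in the others of its group.

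Spred3, which differs from its paralogs in lacking a working KIT-binding domain, was scarcer and went its own way under the ERF label. In 2iL it measured 4.87, 5.36 and 5.43 CPM in the reference line and 6.51, 6.95 and 7.40 CPM after RAS deletion. The libraries labelled ERF knockout held 2.50, 2.17 and 2.63 CPM and those with both losses 3.30, 2.24 and 2.56 CPM. The ERF label went with less Spred3 in 2iL, where it went with more Spry4 and Spred1. In FA the reference libraries held 17.7 and 18.9 CPM, those labelled ERF knockout 11.5, 8.73 and 15.98 CPM, the RAS-deleted ones 3.42, 5.35 and 5.68 CPM, and those with both losses 2.32, 2.16 and 2.28 CPM. Cells with both losses thus held less Spred3 than RAS-deleted cells, the reverse of the order of Spry2 and Spred1. The effective length that the quantifier gave Spred3 differed between libraries by a ratio of 2.81, against at most 1.16 for the other members, and its values per length are less certain. Ggn lies on the other strand within Spred3 and had 1 to 17 counts in any library.

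**Figure D2:**
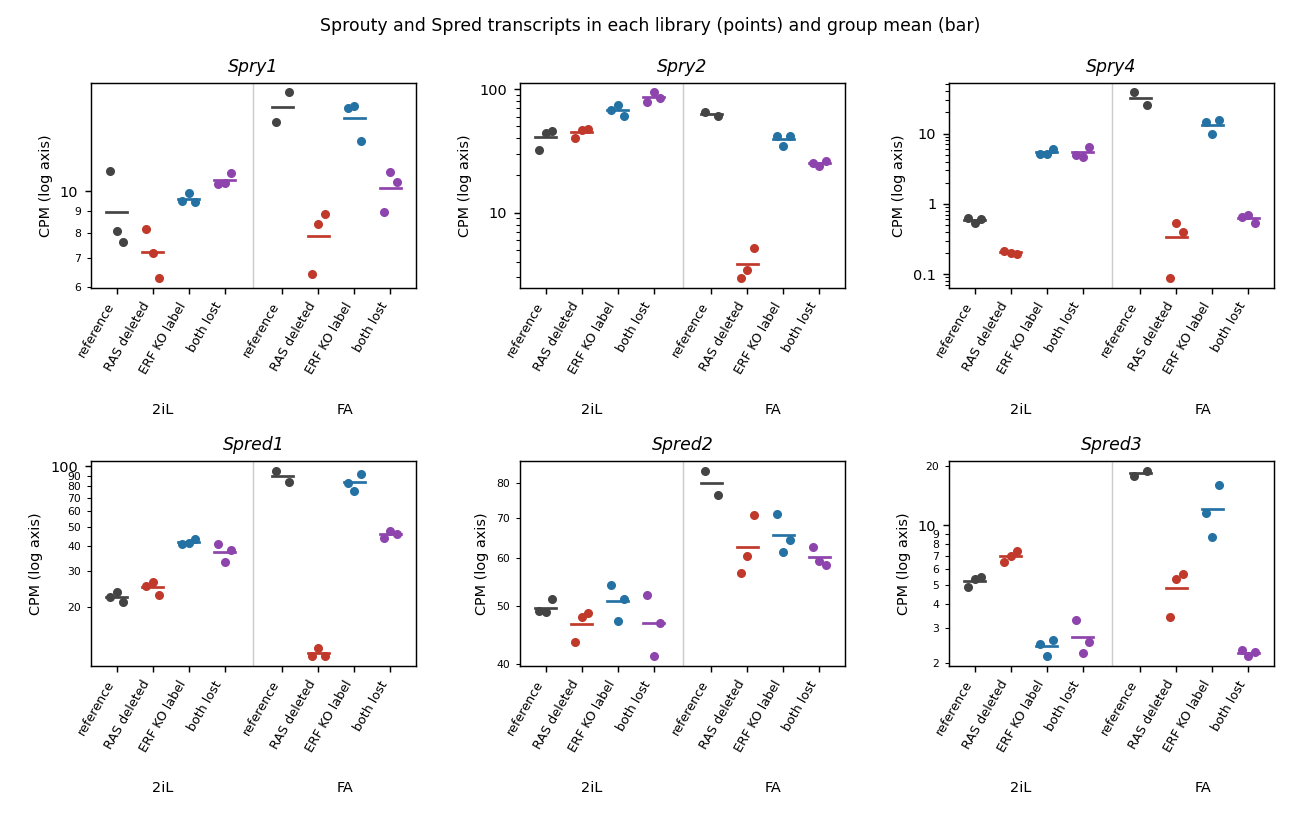
Level of each gene in each library (points; CPM on a log axis) with the mean of its group (bar), for the reference line, RAS deleted, the ERF knockout label and both losses, in 2iL (left of the grey line) and FA (right). In FA the RAS-deleted libraries of Spry2, Spry4 and Spred1 lie far below the reference ones, and those with both losses lie between them for Spry2 and Spred1.

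The move from 2iL to FA was tested first, to ask which members respond to the medium in each genotype. In the reference line Spry4, Spred1 and Spred3 rose, which is 3 of 6 members, where 24% of all genes were called and 13.2% rose. Calls needed both a 2-fold change and an adjusted p under 0.05 from edgeR's quasi-likelihood test, by the Benjamini-Hochberg method over all 20372 genes. Spry4 rose by 5.73 ± 0.28 (log2, SE), or 53.1-fold (adjusted p = 1.22e-13, edgeR). Spred1 rose 4.01-fold (adjusted p = 7.78e-14, edgeR) and Spred3 3.52-fold (adjusted p = 9.39e-08, edgeR), or 1.81 (log2) against 1.23 with effective length offsets. Spry1, Spry2 and Spred2 passed the p threshold at 1.74-, 1.54- and 1.62-fold, under the 2-fold minimum. In the same cells the 8 naive markers all fell and the 6 formative and primed markers all rose. Their summed levels were 2658 to 3015 CPM in 2iL and 175 to 216 CPM in FA for the naive list. Of 5 primitive endoderm markers 4 rose (all but Sox17), from a sum of 13.7 to 21.3 CPM to 94.0 to 159 CPM, and of 6 trophoblast markers Krt8 and Krt18 rose and Gata3 fell. Of the 6 pluripotency markers Utf1 and Lin28a rose and Sox2 and Nanog fell, and Col1a2 of the feeder list rose. The part of these markers in the members' values was not tested. In bulk RNA, fewer cells of a type and less RNA per cell cannot be told apart.

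In RAS-deleted cells no member rose and Spry2 and Spred1 fell, 2 of 6 members, where 16.5% of all genes were called and 6.59% fell. Spry2 fell by 3.52 ± 0.16 (log2, SE), or 11.5-fold (adjusted p = 1.12e-12, edgeR), and Spred1 2.14-fold (adjusted p = 2.04e-09, edgeR). Spry4, at 4 counts per library in 2iL, had a difference of 0.74 ± 0.51 (log2, SE) and was not called, although without replicate 1 of the RAS-deleted FA cells it came to 1.15 with an adjusted p of 0.0484 in edgeR (0.0484 to 0.706 over 13 alternatives). With the ERF knockout label Spry4 (2.47-fold, adjusted p = 1.46e-05, edgeR) and Spred3 (4.96-fold, adjusted p = 2.88e-09, edgeR) rose, where 19.7% of all genes were called and 12.3% rose, and Spred1 at 1.98-fold stood just under the 2-fold line. With both losses Spry2 fell 3.43-fold (adjusted p = 5.63e-10, edgeR) and Spry4 fell 8.51-fold (adjusted p = 1.57e-09, edgeR), where 24.9% of genes were called and 10.4% fell. Cell-state markers moved in these 3 genotypes too. The 6 formative and primed markers rose in each, and naive markers fell in 5 of 8 with RAS deleted (all but Klf2, Zfp42 and Prdm14) and in 8 of 8 with the ERF label and with both losses. Of the primitive endoderm markers Dab2 rose in each, Gata6 fell with RAS deleted and rose with the label, and Sox17 fell with both losses. Gata3 of the trophoblast list rose in each, and Cdx2 and Krt7 fell with RAS deleted. Lin28a rose in each and Utf1 with RAS deleted and with the label, while Sox2 and Nanog fell with the label and with both losses, and Pou5f1 with both losses. Of the feeder list Col1a2 rose in each, Col1a1 fell with RAS deleted and Thy1 with the label; the part of these markers was not tested. Each genotype's comparison uses its own libraries, and the differences between them were tested as interactions.

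**Figure D3:**
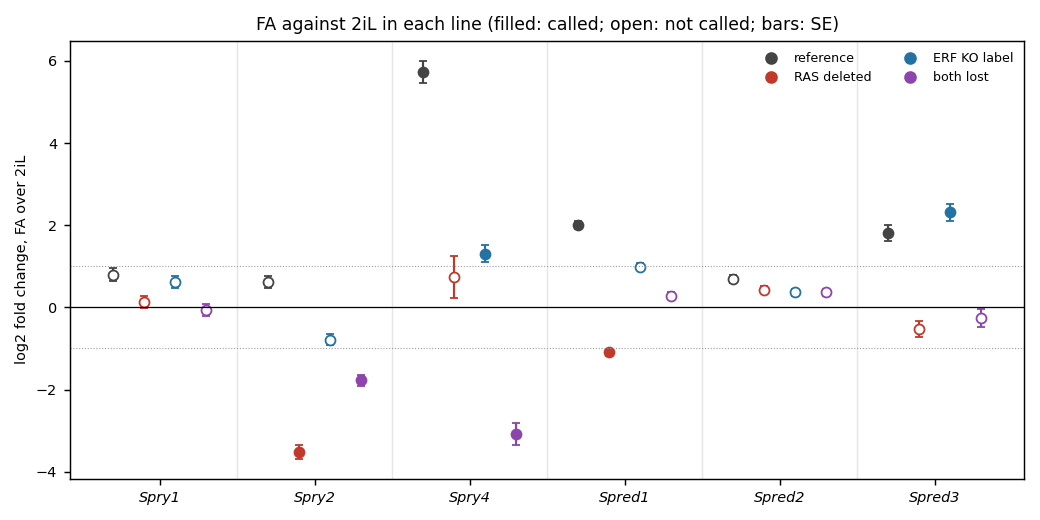
FA over 2iL as a log2 fold change (vertical axis; bars are SE) for each gene in the reference line, RAS deleted, the ERF knockout label and both losses; filled points were called, open points were not, and dotted lines mark 2-fold. Spry4 is at 5.73 in the reference line and at -3.09 with both losses, and Spry2 is at -3.52 with RAS deleted.

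RAS deletion was compared with RAS present in each medium and ERF genotype, to ask which members differ with RAS. In FA with wild-type ERF, 4 of 6 members fell (Spry2, Spry4, Spred1 and Spred3) and none rose, where 17.3% of all genes were called and 8.33% fell. Spry4 fell by 6.52 ± 0.29 (log2, SE), or 91.5-fold (adjusted p = 9.99e-14, edgeR), to 1.05% ± 0.706 (SD, n = 3) of the reference mean. Spry2 fell by 4.01 ± 0.17 (log2, SE), or 16.1-fold (adjusted p = 2.46e-13, edgeR), to 6.13% ± 1.84 (SD, n = 3). Spred1 fell by 2.94 ± 0.10 (log2, SE), or 7.67-fold (adjusted p = 7.54e-16, edgeR), and ranked 2 by adjusted p among the 1698 genes that fell. Spred3 fell 3.79-fold (adjusted p = 6.13e-08, edgeR). Spry1 stood at 1.98-fold lower (adjusted p = 2.08e-05, edgeR), just under the 2-fold line, and Spred2 at 1.28-fold lower (adjusted p = 0.00486, edgeR). Without replicate 1 of the reference line, or replicate 2 or 3 of the RAS-deleted cells, Spry1 passed that line at -1.08, -1.03 and -1.08 (log2). With all libraries of the comparison kept, Spry1 also passed it without the filter on low counts (-1.016) and with effective length offsets (-1.002). It did so too with only the compared groups and a replicate block (-1.081). The median of the 6 members was -2.43 (log2), against 0.001395 over all genes tested.

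The state of the cells differed in the same comparison. Of 8 naive markers 7 rose (all but Klf5) and of 6 formative and primed markers 5 fell and Otx2 rose, with the naive sum at 923 to 1443 CPM in RAS-deleted FA libraries against 175 to 216 CPM in the reference. The formative and primed sum was 138 to 381 CPM against 733 to 795 CPM, and all 5 markers of primitive endoderm fell (13.6 to 18.4 CPM against 94.0 to 159 CPM). All 6 trophoblast markers were called, with Elf5 and Gata3 higher and Cdx2, Krt7, Krt8 and Krt18 lower, at sums of 24.4 to 30.8 CPM against 24.6 to 29.0 CPM. Group means were 0.06 CPM against 0.45 for Cdx2 and 0.82 CPM against 0.31 for Elf5, near the limit of counting. Cdx2, Elf5 and Col1a2 were scarce in every group, with means of at most 1.37, 0.82 and 1.60 CPM. Sox2 and Nanog rose, Utf1 and Lin28a fell, and Col1a1 and Col1a2 of the feeder list fell (list sum 2.23 to 3.59 CPM against 4.404 to 5.325 CPM). Of all these markers only the feeder gene Postn was at 0 in every library of a group (both groups), and their part in the members' values was not tested.

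In cells labelled ERF knockout, deletion of RAS in FA lowered 2 of 6 members, Spry4 and Spred3, where 6.88% of all genes were called and 4.06% fell. Spry4 fell 21.2-fold (adjusted p = 5.50e-11, edgeR) and ranked 3 by adjusted p among 828 genes that fell, and Spred3 fell 5.35-fold (adjusted p = 1.58e-08, edgeR) and ranked 8. Spry2 (1.57-fold lower, adjusted p = 0.00138, edgeR) and Spred1 (1.82-fold lower, adjusted p = 1.41e-07, edgeR) passed the p threshold but not the 2-fold minimum. Of the primitive endoderm markers 4 of 5 fell here too, while 5 of 6 formative and primed markers were not called and Fgf5 rose. Klf2 and Prdm14 rose and Tbx3 fell among the naive markers, Gata3 rose and Krt7 fell among the trophoblast markers, and Col1a2 of the feeder list rose; their part was not tested.

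In 2iL, RAS deletion gave no called member in either ERF genotype. With wild-type ERF 1.2% of all genes were called, and edgeR called 0 of 6 members, 3 had an unadjusted p under 0.05 (Spry1, Spry4 and Spred3) and DESeq2 called 1, Spry4. Spry4 differed by -1.52 ± 0.47 (log2, SE; adjusted p = 0.0552, edgeR), on 4 counts per RAS-deleted library, and over 15 alternatives its adjusted p ran from 0.00937 to 0.184. With the ERF knockout label 0.211% of all genes were called, and edgeR and DESeq2 called 0 of 6 members, with 1 at an unadjusted p under 0.05 (Spry2).

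**Figure D4:**
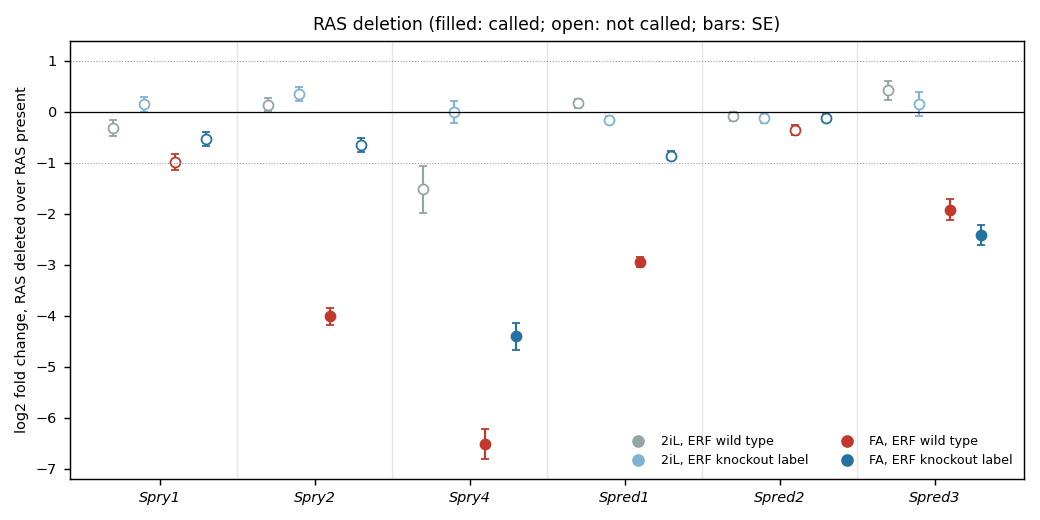
RAS deleted over RAS present as a log2 fold change (vertical axis; bars are SE) for each gene, in 2iL and FA and with ERF wild type or the ERF knockout label; filled points were called, open points were not. In FA with wild-type ERF Spry4 is at -6.52, Spry2 at -4.01 and Spred1 at -2.94, while with the ERF knockout label Spry2 is at -0.65 and Spred1 at -0.86.

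ERF knockout by label was then set against ERF wild type within each medium and RAS state, to ask which members differ when the repressor is absent by label. In 2iL with RAS, Spry4 rose and Spred3 fell, where 9.72% of all genes were called, 5.2% higher and 4.52% lower. Spry4 was higher by 3.17 ± 0.28 (log2, SE), or 9.03-fold (adjusted p = 1.79e-08, edgeR), and Spred3 was 2.14-fold lower (adjusted p = 4.22e-04, edgeR). Spred1 at 1.88-fold higher (adjusted p = 6.58e-08, edgeR) and Spry2 at 1.67-fold higher (adjusted p = 2.91e-04, edgeR) stayed under 2-fold. In 2iL without RAS the same 2 members were called, where 13% of all genes were, 5.83% higher and 7.15% lower: Spry4 rose 25.7-fold (adjusted p = 5.94e-10, edgeR) and Spred3 fell 2.57-fold (adjusted p = 1.98e-05, edgeR). With offsets for the effective length Spred3 differed there by -0.92 (log2; adjusted p = 0.0149, edgeR) and was not called, and its adjusted p over 15 alternatives ran from 1.85e-10 to 0.0149. Primitive endoderm markers moved in 2iL with RAS as well: 3 of 5 rose (27.4 to 65.9 CPM in sum against 13.7 to 21.3). Of the trophoblast markers Krt8 and Krt18 rose and Gata3 fell with and without RAS, and Cdx2 fell without it (sums of 18.3 to 45.4 CPM against 10.8 to 17.3 with RAS, and 19.01 to 27.8 CPM against 10.8 to 14.1 without). In both RAS states Prdm14, Otx2 and Col1a1 fell and Utf1, Lin28a and Thy1 rose, and without RAS Zfp42 fell and Sox4 rose. The part of these markers was not tested.

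In FA different members were called with and without RAS. With RAS present only Spry4 was called, 2.38-fold lower with the label (adjusted p = 7.49e-04, edgeR), where 2.36% of all genes were called and 0.78% fell. Without replicate 1 of the reference line in FA the difference was -0.90 (log2), under the 2-fold line. This call therefore rests on that library, which also had the higher median over chromosome 8 in its group. With RAS deleted, Spry2 and Spred1 rose and Spred3 fell, where 16.6% of all genes were called, 8.13% higher and 8.48% lower. Spry2 was higher by 2.69 ± 0.16 (log2, SE), or 6.45-fold (adjusted p = 3.29e-11, edgeR), and Spred1 3.93-fold (adjusted p = 1.80e-13, edgeR), which ranked 3 by adjusted p among 1657 genes that rose. Spred3 was 2.14-fold lower (adjusted p = 1.33e-04, edgeR), and -0.96 (log2) without replicate 3 of the RAS-deleted FA cells, under the 2-fold line. Spry4 differed by 0.86 ± 0.38 (log2, SE; adjusted p = 0.0739, edgeR) and was not called, although without replicate 2 of the RAS-deleted FA cells it came to 1.28 with an adjusted p of 0.0258 (0.0258 to 0.349 over 15 alternatives). Of the naive markers 7 of 8 fell in the same comparison and of the formative and primed markers 4 of 6 rose, with the naive sum at 146 to 185 CPM with both losses against 923 to 1443 CPM. Gata6, Cdx2, Krt8, Krt18, Lin28a, Col1a1 and Col1a2 also rose there, and Gata3, Sox2 and Nanog fell. With RAS present Lef1 and Gata3 fell. The part of these markers was not tested.

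**Figure D5:**
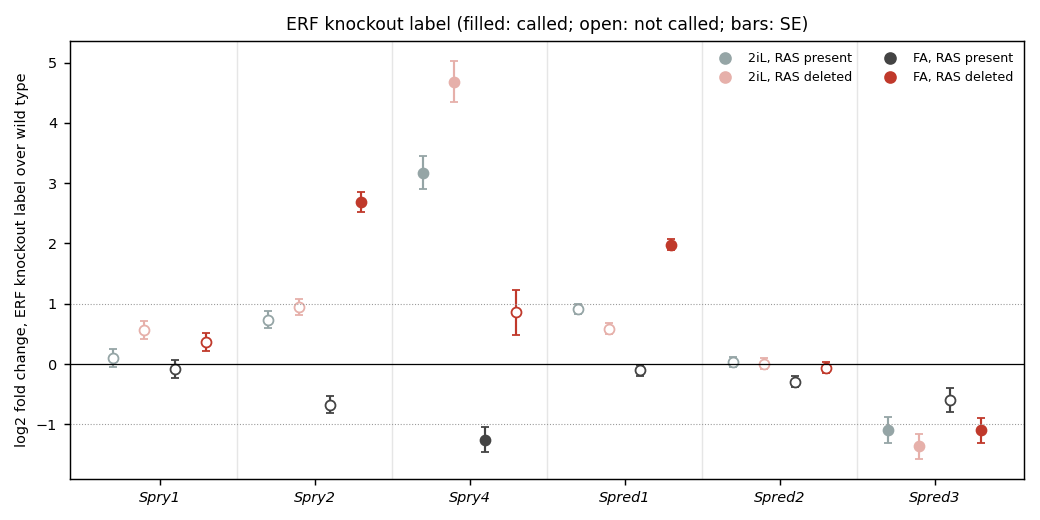
ERF knockout label over ERF wild type as a log2 fold change (vertical axis; bars are SE) for each gene, in 2iL and FA and with RAS present or deleted; filled points were called, open points were not. Spry4 is at 3.17 and 4.68 in 2iL and at -1.25 in FA with RAS, and Spry2 and Spred1 are at 2.69 and 1.97 in FA without RAS.

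Whether the effects differ was tested by interactions. In FA the RAS effect differed by ERF label for Spry2, Spry4 and Spred1, 3 of 6 members, where 13.7% of all genes were called and 6.29% were positive. For Spry2 the interaction was 3.36 ± 0.22 (log2, SE; adjusted p = 7.24e-10, edgeR), for Spred1 2.08 ± 0.13 (adjusted p = 1.22e-10, edgeR) and for Spry4 2.11 ± 0.43 (adjusted p = 7.37e-04, edgeR), a positive value meaning a smaller fall with the label. Spred3, at -0.50 ± 0.28 (adjusted p = 0.204, edgeR), was not called. In levels, Spry2 and Spred1 with both losses stood at 40.0% ± 1.65 and 51.3% ± 2.09 of the reference FA mean (SD, n = 3), against 6.13% and 13.04% with RAS deletion alone. Spry4 with both losses stood at 1.96% ± 0.248 (SD, n = 3), so its interaction came with a level close to that of RAS deletion alone and with a lower level under the ERF label when RAS was present. Cell-state markers were called in the same FA interaction: it was negative for 7 of 8 naive markers (all but Klf5), Sox2, Nanog and Gata3, and positive for 5 of 6 formative and primed markers (all but Otx2), Lin28a, Pdgfra, Dab2, Cdx2, Col1a1 and Col1a2. Their part in the members' values was not tested. In 2iL, where 0.378% of all genes were called, edgeR and DESeq2 called the RAS by ERF interaction for 0 of 6 members, and 3 had an unadjusted p under 0.05 (Spry1, Spry4 and Spred1). Spry4 stood there at 1.51 ± 0.52 (log2, SE; adjusted p = 0.136, edgeR), and over 21 alternatives its adjusted p ran from 0.0314 to 0.267.

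The response to the medium differed by RAS in wild-type ERF cells for Spry2, Spry4, Spred1 and Spred3, all negative (where 11.9% of all genes were called and 5.3% were negative), with Spred1 ranking 1 by adjusted p among the 1080 negative genes. With the ERF label it differed for Spry4 and Spred3, 2 of 6 members (4.59% of all genes, 2.31% negative). Spry2 stood there at -0.997 ± 0.19 (log2, SE; adjusted p = 0.00173, edgeR), just under the 2-fold line, and passed it in 7 of the 12 fits that left out 1 library, between -1.09 and -0.93 over all 12, and in DESeq2. The response to the medium differed by ERF label with RAS present for Spry2, Spry4 and Spred1, all negative (4.27% of all genes, 2.05% negative), and with RAS deleted for the same 3, where Spry2 and Spred1 were positive and Spry4 negative (11.3% of all genes, 5.59% positive and 5.74% negative). For Spred1 with RAS present the value was -1.02 ± 0.13 (log2, SE; adjusted p = 1.57e-05, edgeR), and it dropped under the 2-fold line without replicate 3 of the reference line in 2iL (-0.98), replicate 1 of it in FA (-0.90), replicate 3 of the ERF-labelled cells in 2iL (-0.99) or replicate 2 of those in FA (-0.95). Markers were called in these interactions as well, and their part was not tested. Medium by RAS with wild-type ERF was positive for 7 of 8 naive markers (all but Klf5), Otx2, Sox2, Nanog and Gata3. It was negative for all 5 primitive endoderm markers and for Pou3f1, Dnmt3b, Lef1, Utf1, Cdx2 and Col1a1. With the ERF label it was positive for Prdm14, Gata3 and Col1a2 and negative for Tbx3, Gata6 and Krt7. Medium by ERF with RAS present was positive for Otx2 and Gata3 and negative for Utf1, Lin28a, Pdgfra and Dab2. With RAS deleted it was negative for all 8 naive markers, Pou5f1, Sox2, Utf1 and Lin28a, and positive for Pou3f1, Dnmt3b, Cdx2, Gata3 and Col1a1. These comparisons share libraries with each other, so their calls are not separate evidence.

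Cells with both losses were also compared with the reference line. In FA Spry2, Spry4 and Spred3 fell, 3 of 6 members, where 3.32% of all genes were called and 1.62% fell. Spry4 fell by 5.66 ± 0.27 (log2, SE), or 50.6-fold (adjusted p = 4.22e-12, edgeR), and ranked 1 by adjusted p among the 331 genes that fell. Spred3 fell 8.11-fold (adjusted p = 2.93e-09, edgeR) and ranked 4, and Spry2 fell 2.50-fold (adjusted p = 3.81e-06, edgeR). Spred1 stood 1.95-fold lower (adjusted p = 2.15e-07, edgeR), just under the line. In this comparison 7 of 8 naive markers and all 6 formative and primed markers were not called, all 5 primitive endoderm markers fell, Tbx3 and Utf1 fell and Gata3 rose. In 2iL Spry2 (2.12-fold, adjusted p = 3.96e-06, edgeR) and Spry4 (8.94-fold, adjusted p = 2.21e-08, edgeR) rose, where 9.58% of all genes were called and 4.58% rose, and without replicate 1 of the reference line Spry2 was at 0.95 (log2), under the line. Dab2, Krt8, Utf1, Lin28a and Thy1 rose there and Prdm14, Otx2 and Gata3 fell, and their part was not tested.

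Other genes of the pathway were followed as 3 lists. Of 17 genes that ERK signalling induces or that restrain it, 16 were tested. In the reference line 8 rose in FA (Dusp4, Dusp5, Dusp6, Etv1, Egr1, Il17rd, Myc and Epha2), against 13.2% of all genes, and Fos fell, with a median of 1.29 (log2) against 0.0345 over all genes. RAS deletion in FA lowered 8 of 16 with wild-type ERF (Dusp4, Dusp6, Etv1, Etv4, Egr1, Phlda1, Il17rd and Myc), against 8.33% of all genes, and raised Ccnd1, and with the ERF label it lowered 8 as well, against 4.06% of all genes. The RAS by ERF interaction in FA was called for 4 of 16, against 13.7% of all genes. It was positive for Il17rd, a membrane antagonist of FGF signalling also called Sef, at 3.50 ± 0.14 (log2, SE; adjusted p = 1.34e-13, edgeR), and for Myc. It was negative for Etv4, an ETS activator, at -2.30 ± 0.37 (adjusted p = 8.01e-05, edgeR), and for Fos. Dusp6, the phosphatase that removes ERK's activating phosphates, fell 7.40-fold and 4.66-fold after RAS deletion with wild-type ERF and with the label, and its interaction, 0.67 ± 0.29 (adjusted p = 0.0979, edgeR), was not called. After RAS deletion in FA Il17rd fell 9.87-fold with wild-type ERF and stood at 0.19 ± 0.09 (log2, SE; adjusted p = 0.126, edgeR) with the label, where Spry2 and Spred1 were lower. Dusp6 and Dusp4 fell with RAS deletion in both ERF genotypes as Spry4 did.

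Of 12 genes for known partners of the proteins (among them Nf1, which encodes neurofibromin, Cbl and Grb2), edgeR and DESeq2 called 0 in 10 of the 12 comparisons of 1 factor, while 0 to 8 had an unadjusted p under 0.05. The share of all genes called ran from 0.211% to 24.9% over the 12 comparisons. The calls were Tesk1, a kinase that binds Sprouty, higher in FA with the ERF label, and Siah2, a ubiquitin ligase, lower with the label in RAS-deleted 2iL cells. Of 8 genes for FGF ligands and receptors, 4 rose in FA in the reference line (Fgf5, Fgf8, Fgf15 and Fgfr2), against 13.2% of all genes. After RAS deletion in FA with wild-type ERF, Fgf5 and Fgfr4 fell, against 8.33% of all genes, and Fgfr2 rose. With the ERF label the same deletion raised Fgf5 (2.44-fold, adjusted p = 0.0499, edgeR), Fgf8 (11.6-fold), Fgf15 and Fgfr2 and lowered Fgfr4, where 6.88% of all genes were called. The RAS by ERF interaction in FA was called for Fgf5, at 3.14 ± 0.69 (log2, SE; adjusted p = 0.00273, edgeR), and for Fgf8, 2 of 8, against 13.7% of all genes.

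The genes whose levels ran closest to each member were taken by Pearson's r of log2 CPM over all 23 libraries, as a description: libraries of a group share their state, so the 23 points are not independent. They were Ntan1 (0.91), Lyrm4 (0.91) and Cpne7 (0.90) for Spry1, and Rplp0 (0.94), Rnps1 (0.94) and Eif3m (0.93) for Spry2. For Spry4 they were Epha1 (0.93), Runx1 (0.93) and F2rl1 (0.92). For Spred1 they were Rapgef5 (0.96), Bst2 (0.94) and Trnt1 (0.94), and for Spred2 Pnpt1 (0.96), Fam169a (0.94) and Maco1 (0.93). Those of Spred3 were less close: Ptpn9 (0.89), Hoxa10 (0.84) and Hoxa9 (0.83). No member was among the genes compared.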

How the data were processed

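Total RNA was depleted of ribosomal RNA, made into directional libraries and read as 75 bp pairs, per the labels' protocols. The submitters' processing notes name bcl2fastq 2.20.0, fastp 0.20.0, Salmon and the build mm10; the transcriptome and strand setting are not given in the sources used here. The authors deposited, per library, estimated counts and TPM per gene symbol, and per the file headers these are the quantifier's own columns. Their table of whole-number counts for all 23 libraries equals the deposited estimated counts rounded (0 cells differ), and that table was tested.

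Genes were filtered with filterByExpr, scaled by TMM and tested with edgeR 4.0.16 in R 4.3.3 (robust quasi-likelihood test, 1 coefficient per group, 23 libraries), with Benjamini-Hochberg adjustment over 20372 genes. SE is taken from each log2 fold change and its F statistic, as |log2 fold change| over root F. There were 12 comparisons of 1 factor, 2 of both losses and 6 interactions. Each library was counted once. Replicates differed beyond counting noise in all 22 pairs (chi-square per degree of freedom 3.04 to 44.9), which cannot show whether they were separate cultures. Depth ran from 16.2 to 29.9 M counts; reads carry no molecular identifiers. The predicted gene Gm26917 took up to 27.9% of a library.

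The members and lists were chosen with earlier results of these data known. The 6 members are always named; beside them the 3 nearest genes each by Pearson's r (log2 CPM, prior count 2), passing over members, predicted genes, Rik genes and clone names, and list genes where a result turns on them. Alternatives were DESeq2 1.42.0, RLE size factors, no filter, effective length offsets, no Gm26917, no 2-fold minimum, only the compared groups, a replicate block and leaving out each library. A further target gene, protein sequences and the Spry4 promoter are not reported here.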

Additional observations from a re-analysis of the deposited data

Results flagged for a closer look

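Each result here is a difference between effects of the same factor in 2 settings, tested by an interaction in edgeR's quasi-likelihood model with Benjamini-Hochberg adjustment, given as log2 ± SE. Spry2, Spry4 and Spred1 responded differently to RAS deletion in FA by ERF label, at 3.36 ± 0.22 (adjusted p = 7.24e-10), 2.11 ± 0.43 (adjusted p = 7.37e-04) and 2.08 ± 0.13 (adjusted p = 1.22e-10). In the same interaction 7 of 8 naive markers were negative and 5 of 6 formative and primed markers positive, and their part was not tested.

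The response to FA differed by RAS with wild-type ERF for Spry2 (-4.15 ± 0.22, adjusted p = 1.90e-11), Spry4 (-4.99 ± 0.72, adjusted p = 1.41e-05), Spred1 (-3.10 ± 0.13, adjusted p = 2.92e-13) and Spred3 (-2.34 ± 0.28, adjusted p = 1.15e-06). With the ERF knockout label it differed for Spry4 (-4.39 ± 0.34, adjusted p = 1.84e-08) and Spred3 (-2.57 ± 0.30, adjusted p = 1.01e-05). Of the naive markers 7 of 8 were positive and of the primitive endoderm markers 5 of 5 negative with wild-type ERF, against 1 positive and 1 negative naive marker and 1 negative primitive endoderm marker with the label; their part was not tested.

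The response to FA differed by ERF label with RAS present for Spry2 (-1.41 ± 0.20, adjusted p = 1.00e-04), Spry4 (-4.43 ± 0.35, adjusted p = 4.64e-08) and Spred1 (-1.02 ± 0.13, adjusted p = 1.57e-05). With RAS deleted it differed for Spry2 (1.74 ± 0.21, adjusted p = 3.13e-06) and Spred1 (1.39 ± 0.13, adjusted p = 2.92e-08), now in the positive direction, and for Spry4 (-3.83 ± 0.58, adjusted p = 2.80e-05). All 8 naive markers were negative with RAS deleted, and their part was not tested. No library was tested as an outlier within its group of 2 or 3; results that rest on 1 library are given where they occur.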

How the results depend on the processing

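No called member value changed sign under any alternative; the sign of uncalled differences was not followed. Without the 2-fold minimum the members called rose from 3 to 6 for FA against 2iL in the reference line, 2 to 4 with RAS deleted, 2 to 6 with the ERF knockout label and 2 to 4 with both losses. They rose from 2 to 5 for RAS deletion in FA with the label, from 2 to 4 and 2 to 5 for the label in 2iL with RAS present and deleted, and from 1 to 2 for the label in FA with RAS. They rose from 2 to 4 and 3 to 6 for both losses against the reference in 2iL and FA. For medium by RAS with the label they rose from 2 to 5. Over all 20372 genes tested, calls rose in the same comparisons, given here in the same order. They went from 4891 to 10075, 3371 to 8757, 4018 to 9549 and 5076 to 11353 for FA against 2iL. For RAS deletion in FA with the label they went from 1401 to 5369. For the label the rises were 1980 to 5668, 2644 to 7975 and 480 to 1992. For both losses they went from 1952 to 5739 and 676 to 2027, and for medium by RAS with the label from 936 to 2669. For RAS deletion in 2iL with wild-type ERF, 1 member (Spry4) in place of 0 was called without the filter, with only the compared groups, with DESeq2, and with a replicate block over all libraries or over the compared groups. The RAS by ERF interaction in 2iL gave 1 in place of 0 (Spry4) without the filter and with only the compared groups, with or without the replicate block. With effective length offsets the label in RAS-deleted 2iL cells gave 1 in place of 2. Leaving out 1 library gave 1 to 3 calls for both losses against the reference in 2iL (1 without replicate 1 of the reference line, 3 without replicate 1 of both losses) and 0 to 1 for the label in FA with RAS (0 without replicate 1 of the reference line). Leaving out 1 library also brought over the 2-fold line Spry2 in medium by RAS with the label (7 of 12 fits, -1.09 to -0.93 over all 12), Spred1 in FA against 2iL with the label (1.01 and 1.05 without label replicate 3 in 2iL or 2 in FA), Spry2 for the label in RAS-deleted 2iL cells (1.01) and Spred3 for both losses in 2iL (-1.12), each without replicate 1 of both losses, and Spred1 for both losses in FA (-1.05 without replicate 2 of the reference line). The causes were not tested.

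Replicate numbers were not used as pairs in the main fit. In no comparison did every same-numbered pair correlate above 0.1 in its deviations. Every pair did correlate best with its own number in 3 of the 12. These were RAS deletion with the label (r of 0.0868 to 0.208 in 2iL and 0.0352 to 0.115 in FA) and the medium with both losses (0.0455 to 0.0791). The values do not settle whether the numbers pair the libraries, and a replicate block was fitted as an alternative. Of 120 member values in the replicate block over all libraries, 119 kept their side of the threshold; Spry4 after RAS deletion in 2iL, at -1.51 (adjusted p = 0.0433, edgeR), was gained. RLE size factors and the removal of Gm26917 each changed 1 of 120, Spry2 in medium by RAS with the label, which passed the 2-fold line; it also did so without the filter and in DESeq2 (3 members in place of 2). With only the compared groups 119 values could be fitted.

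Over all genes, RAS deletion in 2iL gave 244 calls with wild-type ERF (559 without the filter; 70 and 157 without replicates 1 and 2 of the reference line, 116 and 119 when RAS-deleted replicates 2 and 3 were left out). With the label it gave 43 calls (240 without the filter, 23 with length offsets, 75 and 207 with the compared groups without and with the block, 77 with DESeq2, 17 to 21 leaving out a replicate 2 or 3). The RAS by ERF interaction in 2iL gave 77 (457 without the filter, 46 with length offsets, 129 with the block, 154 with the compared groups and the block, 143 with DESeq2, 26 to 159 leaving out 1 library). The label in FA with RAS gave 480 (881 without the filter, 266 with the compared groups, 124 and 749 without replicates 1 and 2 of the reference line, 238 without replicate 2 of the ERF-labelled cells), and medium by ERF with RAS present 870 (577 without replicate 1 of the reference line in FA). Without the 2-fold minimum the count over all genes rose by over 1.5 times in each of the 20 comparisons, for example from 3518 to 8420 for RAS deletion in FA. Depth limits Spry4 most, at 2 to 20 counts per library in 4 groups.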
